A study of Mus musculus with 7 samples.

Results

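Glutathione peroxidases, superoxide dismutases and catalase are the enzymes that remove superoxide and peroxides from cells. The 9 genes considered were Gpx1, Gpx3, Gpx4, Gpx7, Gpx8, Sod1, Sod2, Sod3 and Cat. They were found by their symbols among the 11642 rows of the expression table, and 7 of the 9 were analysed, each in a row of its own. Gpx7 and Sod3 were not analysed here. The family was chosen by its values in the comparison of depleted with control cells, above all those of Gpx3, so the differences between the groups are given as a description, without a test.

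The samples were C2C12 cells, a line of mouse myoblasts that exit the cell cycle and fuse into myotubes when serum is lowered. Total RNA was sequenced on day 2 after the switch to differentiation medium from 2 samples transfected with a scramble siRNA (si-SCR) and 2 transfected with an siRNA against lnc-SMaRT (si-SMaRT), a long non-coding RNA of differentiating muscle. According to the study, the samples came from independent populations of this single line. A single siRNA against lnc-SMaRT was used in these samples. The series also holds 1 pull-down library for lnc-SMaRT, 1 for LacZ as the unspecific control, and 1 input library.

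Superoxide arises mainly as a by-product of respiration and from oxidases. Superoxide dismutases turn it into hydrogen peroxide, which catalase splits into water and oxygen and which glutathione peroxidases reduce at the expense of glutathione. Differentiating muscle cells build up mitochondria, a main site where superoxide is formed. Several glutathione peroxidases carry selenocysteine, the selenium analogue of cysteine, in their active site, and it is encoded by a TGA codon that elsewhere ends translation.

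This feature divides the 4 glutathione peroxidases with values in these samples, and it is shown here because the genes on either side of it had different values between the groups. The gene models (GENCODE M21, GRCm38) mark a selenocysteine codon in the coding exons of Gpx1 at chr9:108339451-108339453, of Gpx3 at chr11:54907256-54907258 and of Gpx4 at chr10:80054737-80054739. In Gpx8 the codon at the aligned position, chr13:113045661-113045663, is TGC for cysteine. Each window of 27 bases reads 5′ to 3′ on the strand of the gene (plus for Gpx1, Gpx3 and Gpx4, minus for Gpx8), and the capitals mark this codon.
Gpx1: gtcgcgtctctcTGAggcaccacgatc
Gpx3: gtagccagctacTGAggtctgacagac
Gpx4: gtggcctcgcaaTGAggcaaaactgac
Gpx8: gtggctagtgacTGCcgcttcacagac
The selenocysteine was codon 47 of 201 in Gpx1, codon 73 of 226 in Gpx3 and codon 129 of 253 in Gpx4. Gpx8 had its cysteine at codon 79 of 209. These codon numbers are those of a single transcript per gene. Gpx4 has 7 annotated transcripts, in which they can differ. Over the window, 13 bases of Gpx1, 16 of Gpx4 and 18 of Gpx8 were identical with Gpx3.

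The labels were first checked with the targeted gene. Lnc-SMaRT had an RPKM (reads per length of transcript and sequencing depth) of 19.1 and 15.9 in the si-SCR samples and of 2.88 and 3.65 in the si-SMaRT samples, and the groups did not overlap. On the log2 scale it fell by 2.39 with a standard error of 0.28 (limma, adjusted p = 0.000882). Fold changes are si-SMaRT over si-SCR on the scale of log2(RPKM + 0.1), on which the change of a gene with low RPKM comes out too small. The effective library sizes ranged from 11291255 to 14312935 reads. Of 11086 genes tested, 56 passed an adjusted p of 0.05, and 36 of them were lower in si-SMaRT.

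The peroxidase gene with the largest difference was Gpx3, which encodes the secreted glutathione peroxidase of extracellular fluids. Gpx3 lies on the plus strand of chromosome 11, from 54902453 to 54910377. Its RPKM was 1.13 and 1.37 in the control samples, and 0.0488 and 0.0385 in si-SMaRT 1 and 2. Both depleted samples were far below both control samples. These values correspond to 26 and 35 reads in the si-SCR samples and to 1 read in each si-SMaRT sample. Pooled over the samples and scaled by library size, the control level was 29.2 times the depleted level, with a 95% exact interval of 7.73 to 246 that covers counting error only. Both depleted values were under the value of 3 reads, which is an RPKM of 0.147 in si-SMaRT 1 and 0.116 in si-SMaRT 2. The fitted log2 fold change was -3.23 (standard error 0.37), and because of the low reads its size followed the pseudocount, with -1.11 at a pseudocount of 1 and -4.55 at 0.01. Gpx3 entered the fit only through its level in si-SCR, since the minimum was a mean RPKM of 0.5 while its group means were 1.25 ± 0.165 (SD, n = 2) for si-SCR and 0.0437 ± 0.00729 (SD, n = 2) for si-SMaRT. In CPM (reads scaled to library size alone), Gpx3 had 2.05 and 2.48 in si-SCR and 0.0886 and 0.0699 in si-SMaRT.

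Gpx4 reduces lipid hydroperoxides within membranes and protects cells from ferroptosis. The gene lies on the plus strand of chromosome 10, from 80047166 to 80056439. Its RPKM was 206 and 165 in the control samples, and 127 and 86.2 in si-SMaRT 1 and 2, behind which stood 4488, 4010, 2476 and 2127 reads. The lower control sample was above the higher depleted sample. Control cells had a mean of 185 ± 29.1 (SD, n = 2) and depleted cells a mean of 107 ± 29.0 (SD, n = 2), 42.4% lower. The log2 fold change was -0.81 (standard error 0.28).

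Gpx1, the widespread peroxidase of cytosol and mitochondria, lies on the plus strand of chromosome 9, from 108338903 to 108340343. It had an RPKM of 23.1 and 21.3 in si-SCR and of 20.6 and 13.7 in si-SMaRT. The groups did not overlap, but si-SMaRT 1 lay close to the control samples and most of the difference came from si-SMaRT 2. The log2 fold change was -0.40 (standard error 0.28), with -0.11 when si-SMaRT 2 was left out and -0.69 when si-SMaRT 1 was left out.

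Gpx8, a membrane-bound peroxidase of the endoplasmic reticulum, lies on the minus strand of chromosome 13, from 113042753 to 113046410. Its RPKM was 78.1 and 57.7 in si-SCR and 57.5 and 92.5 in si-SMaRT. The depleted samples held both the lowest and the highest of the 4 values, so the groups overlapped. The log2 fold change was 0.12 (standard error 0.29), and it took the other sign without si-SMaRT 2 (-0.22) and without si-SCR 2 (-0.10).

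The 3 genes with a selenocysteine codon had lower values in both depleted samples than in both control samples, and Gpx8 with its cysteine codon did not. The groups were apart in that direction for 20.4% of all genes tested, and also for Sod1 and Sod2. Nothing is read from this split, since it was shown because the values differed. The 4 peroxidase genes also differed in base composition. GC content of the longest transcript was 57.2% for Gpx1, 56.0% for Gpx3 and 60.2% for Gpx4, against 44.3% for Gpx8. The selenocysteine codon and GC content cannot be told apart over 4 genes. The summed RPKM of the 4 peroxidases was 308 and 245 in si-SCR and 205 and 192 in si-SMaRT. Gpx4 made up 66.8% and 67.2% of this sum in the control samples, against 61.9% in si-SMaRT 1 and 44.8% in si-SMaRT 2. The share of Gpx8 was 25.4% and 23.5% in the control samples, 28.0% in si-SMaRT 1 and 48.1% in si-SMaRT 2, so that Gpx8 exceeded Gpx4 in that last sample alone. Gpx3 made up 0.463% ± 0.134 (SD, n = 2) of the control sum and 0.0219% ± 0.00266 (SD, n = 2) of the depleted sum.

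**Figure D1:**
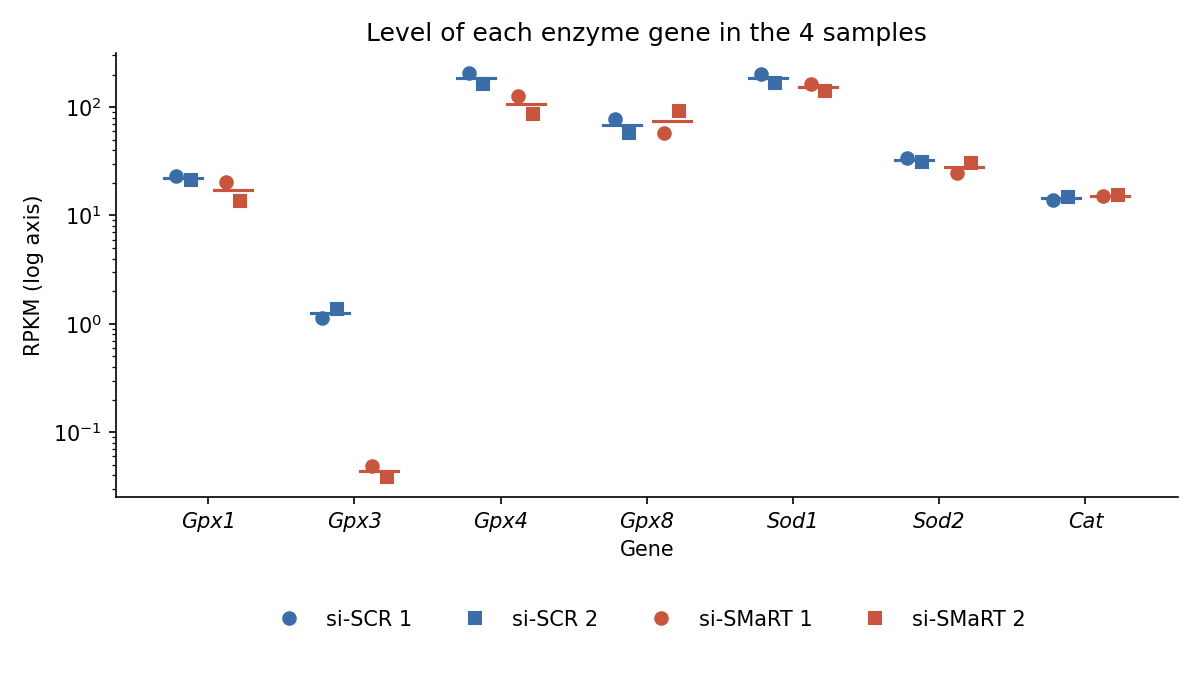
RPKM of the 7 genes in each of the 4 samples, on a log axis. Circles are replicate 1, squares are replicate 2 and horizontal lines are group means. Gpx3 lies near 1 in si-SCR and under 0.05 in both si-SMaRT samples, while no other gene differs as much between the groups.

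Among the superoxide dismutases, Sod1 is the copper and zinc enzyme of the cytosol and lies on the plus strand of chromosome 16, from 90220754 to 90226329. It had an RPKM of 203 and 168 in si-SCR and of 164 and 142 in si-SMaRT. The values of si-SCR 2 and si-SMaRT 1 nearly met, although the groups did not overlap. Control cells had a mean of 185 ± 24.4 (SD, n = 2) and depleted cells a mean of 153 ± 15.9 (SD, n = 2), with a log2 fold change of -0.28 (standard error 0.27).

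Sod2 encodes the manganese enzyme of the mitochondrial matrix and lies on the plus strand of chromosome 17, from 13006846 to 13040063. Its RPKM was 34.1 and 31.5 in si-SCR and 24.7 and 30.8 in si-SMaRT. The depleted samples lay below the control samples, si-SMaRT 2 by little. The log2 fold change was -0.25 (standard error 0.26) and ranged from -0.41 to -0.09 with 1 sample left out. The ratio of Sod1 to Sod2 was 5.64 ± 0.421 (SD, n = 2) in control and 5.62 ± 1.45 (SD, n = 2) in depleted cells, a difference much smaller than the spread between the samples.

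Cat encodes catalase of the peroxisomes and lies on the minus strand of chromosome 2, from 103453849 to 103485160. It was the steadiest of the 7, with an RPKM of 14.0 and 14.9 in si-SCR and of 15.1 and 15.5 in si-SMaRT. The depleted values were the higher ones by a narrow margin. The log2 fold change was 0.08 (standard error 0.26), so a change of Cat was not detectable with 2 samples a group.

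Over the 7 genes, the groups did not overlap for 5 that were lower in si-SMaRT and for 1, Cat, that was higher. The same held for 20.4% of all genes tested in the lower direction and for 20.2% in the higher direction. In the fit, Gpx3 alone passed the threshold, against 0.505% of all genes tested. This is no test of Gpx3, since the family was chosen by its values and it entered the fit only through si-SCR. Nothing is read from these counts, since the choice of the genes had this comparison in view. The median log2 fold change was -0.28 over the 7 genes and 0.02 over all genes tested.

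**Figure D2:**
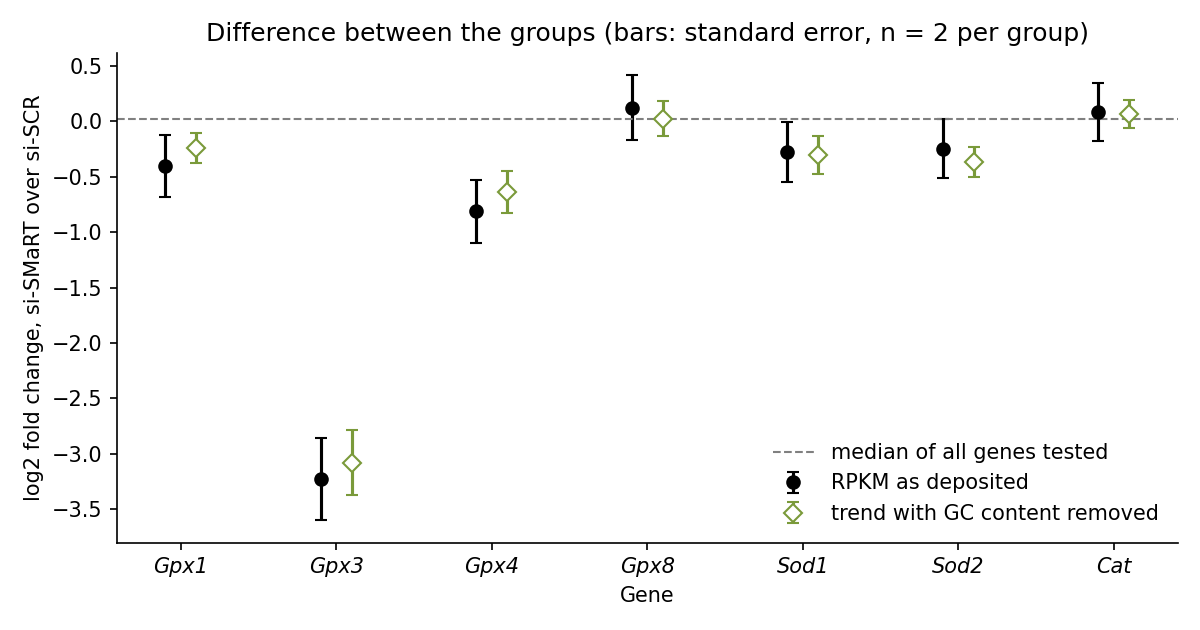
Log2 fold change of the 7 genes, si-SMaRT over si-SCR, with bars for the standard error. Filled circles use the RPKM as deposited and open diamonds the values after each sample's trend with GC content was removed. The dashed line is the median of all genes tested, and 5 of the 7 genes lie below 0 in both settings, with Gpx3 lowest.

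The depleted samples differed from each other in a way that followed the base composition of genes, and this touches several of the values above. By the read numbers of the study, si-SMaRT 1 also lost a much larger part of its read pairs as rRNA and tRNA than any other sample. The part of that loss in the values was not tested. The comparison of si-SMaRT 2 with si-SMaRT 1 covered 9677 protein-coding genes. Their difference had a Spearman's rho of -0.863 with the GC content of each gene's longest transcript. For si-SCR 2 against si-SCR 1 it was 0.392, and for the difference between the groups -0.290. These are descriptions across genes, which share their libraries and are not replicates. Gpx8 was 0.68 higher in si-SMaRT 2 than in si-SMaRT 1 on the log2 scale, while the 946 genes within 1 percentage point of its GC content had a median difference of 0.40, with quartiles of 0.25 and 0.53. Gpx1 differed by -0.59 between the same samples, against a median of -0.68 for its 767 neighbours in GC content. For Gpx4 it was -0.56 against a median of -0.92 for 351 neighbours. Sod1 differed by -0.21 where its 1025 neighbours had a median of 0.12, and Sod2 by 0.32 where its 741 neighbours had 0.53. For both, GC content was that of a transcript longer than the length their RPKM values fit. Cat, at a GC content of 48.7%, differed by 0.03, and its 1014 neighbours had a median of 0.05.

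Between the groups, genes with a GC content like that of Gpx4 had a median log2 difference of -0.14, with quartiles of -0.38 and 0.12. Gpx4 with its -0.81 lay below the lower quartile. Genes like Gpx3 in GC content had a median of -0.12, and so had those like Gpx1, with a lower quartile of -0.40, which is also the value of Gpx1. After each sample's trend with GC content was removed, the log2 fold change was -0.24 (standard error 0.13) for Gpx1, -3.08 (0.29) for Gpx3, -0.63 (0.19) for Gpx4 and 0.02 (0.16) for Gpx8. It was -0.30 (0.17) for Sod1, -0.37 (0.13) for Sod2 and 0.07 (0.13) for Cat. The order of the genes kept Gpx3 lowest and Gpx4 next, and Sod2 and Sod1 then came before Gpx1. The place of Sod2 and Sod1 rests on the GC content of those longer transcripts. The part of base composition in the differences between the groups was not tested further.

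**Figure D3:**
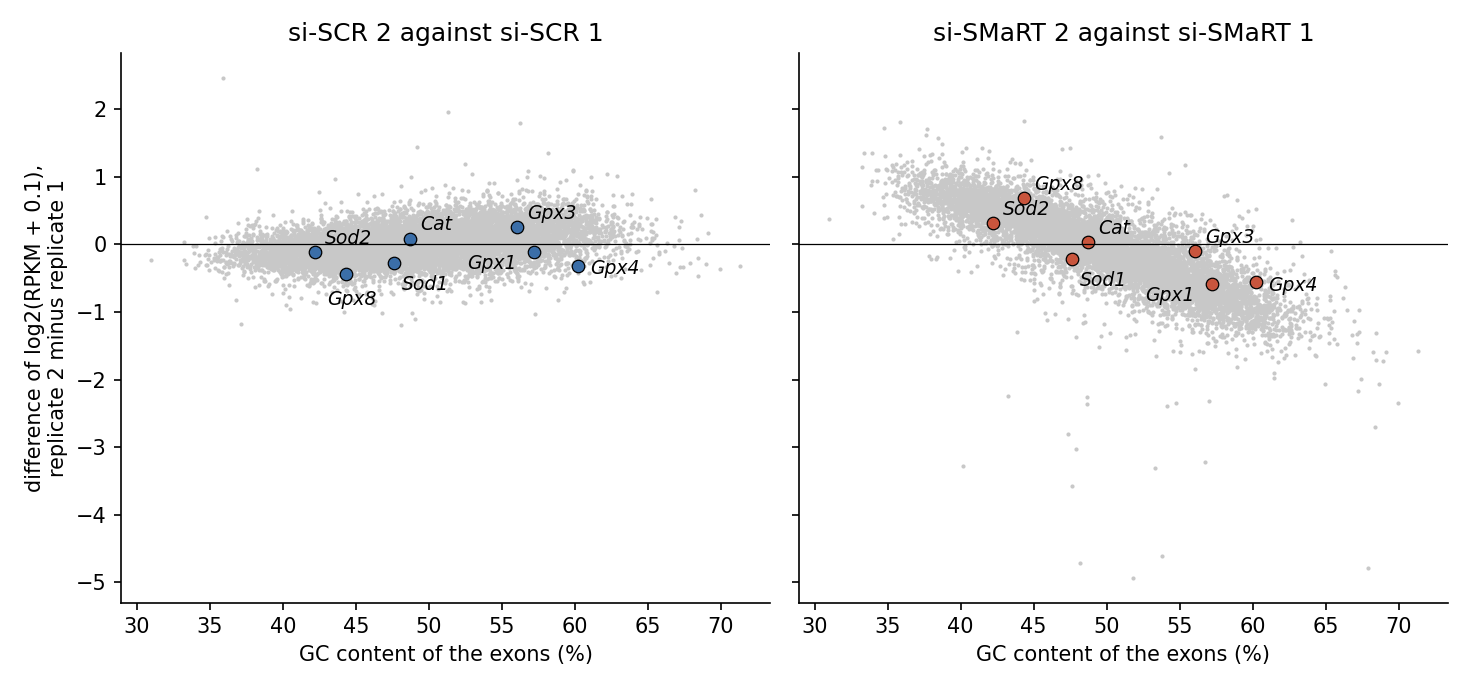
Difference of log2(RPKM + 0.1) between the replicates of a group (vertical) against GC content in percent (horizontal), left for si-SCR and right for si-SMaRT. GC content is that of the exons of each gene's longest transcript. Grey points are 9677 protein-coding genes and the labelled points the 7 enzyme genes. In si-SMaRT the cloud falls steeply with GC content, with Gpx8 and Sod2 above 0 and Gpx1 and Gpx4 below 0.

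In control cells, the levels per length were ordered as Sod1 (185 ± 24.4), Gpx4 (185 ± 29.1), Gpx8 (67.9 ± 14.4), Sod2 (32.8 ± 1.88), Gpx1 (22.2 ± 1.26), Cat (14.4 ± 0.611) and Gpx3 (1.25 ± 0.165), all as mean RPKM ± SD with n = 2. Sod1 and Gpx4 could not be ordered, since each was the higher in 1 of the samples. All other neighbours in this order were apart in both control samples. In the depleted cells, the ranges of Gpx4 and Gpx8 and those of Gpx1 and Cat overlapped. Mean RPKM in si-SCR was higher for Sod1 and Gpx4 than for 97.4% of all rows, and for Gpx3 it was higher than for 14.6%.

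This order rests on the gene lengths behind the RPKM. The steps of the values fit lengths of 1441 bases for Gpx1, 1813 for Gpx3, 1724 for Gpx4 and 2613 for Cat, which are also the exon lengths in GENCODE M21. For Sod1 they fit 646 bases, for Sod2 3824 and for Gpx8 1016, taken as the shortest whole lengths possible, where the gene models give 3970, 10008 and 1048. With the lengths of the gene models, the level in si-SCR would be 30.2 for Sod1, 12.5 for Sod2 and 65.8 for Gpx8. Sod1 would then stand below Gpx8 and Sod2 below Cat. For Sod1 the gene models hold 2 transcripts, of 641 and 3970 bases, and the fitted 646 lies near the shorter. Differences between samples within a gene do not depend on the length.

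The cells were checked for what they were. All 9 markers of differentiating muscle had values, and their summed RPKM was 11106 and 11160 in si-SCR and 7684 and 5166 in si-SMaRT. Tnnc2, a fast troponin, had an RPKM of 2643 and 2249 in si-SCR and of 1235 and 853 in si-SMaRT (log2 fold change -1.25, adjusted p = 0.0994). Myog, the transcription factor myogenin, had 1015 and 1114 in si-SCR and 923 and 640 in si-SMaRT (log2 fold change -0.47, adjusted p = 0.696). Myod1, an upstream factor of the same list, went the other way in si-SMaRT 1, with 54.8 and 70.1 in si-SCR and 95.9 and 57.7 in si-SMaRT (log2 fold change 0.26, adjusted p = 0.857). Tmem8c, which encodes the fusion protein myomaker, had 236 and 305 against 250 and 187, and its groups overlapped like those of Myod1. Id3, an inhibitor of myogenic factors and 1 of 4 markers of undifferentiated myoblasts with values, rose from 2.91 and 3.20 to 12.3 and 7.26 (log2 fold change 1.60, adjusted p = 0.0232). Myf5 and Id1 of the same list had log2 fold changes of -0.0040 and -0.011, and their groups overlapped. Dcn, decorin, a fibroblast marker that muscle cells also express, had an RPKM of 65.2 and 55.7 in si-SCR and of 102 and 148 in si-SMaRT (adjusted p = 0.142). Summed markers ranged from 39.8 to 53.4 for undifferentiated myoblasts, from 2.46 to 3.08 for adipocytes, from 1.96 to 3.16 for macrophages and from 56.9 to 149 for fibroblasts, the last almost wholly Dcn. These sums rest on 2 of 6 adipocyte, 2 of 6 macrophage and 3 of 6 fibroblast markers, and the other markers of these cells and those of endothelial cells were not analysed here. The summed muscle markers were lower in the depleted samples, as were Gpx3, Gpx4 and Gpx1, and their part in those values was not tested. In bulk samples, fewer cells of a type and less RNA per cell cannot be told apart.

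The 5 genes whose pattern over the 4 samples came nearest to that of Gpx3 were lnc-SMaRT itself, Igfn1, Padi3, Slc44a4 and Padi2. Nearness was the Euclidean distance between centred log2(RPKM + 0.1) values and ran from 0.966 for lnc-SMaRT to 1.23 for Padi2. Padi2 and Padi3 encode peptidylarginine deiminases, Igfn1 a sarcomeric protein and Slc44a4 a transporter of the choline-like family. Igfn1 had an RPKM of 4.38 and 4.83 in si-SCR and of 1.25 and 0.450 in si-SMaRT. Padi2 had 4.11 and 4.14 against 1.11 and 0.780. Slc44a4 had 7.42 and 6.39 against 1.96 and 1.14. Padi3 had 0.825 and 0.965 against 0.180 and 0.101, resting on 7 and 5 reads in the depleted samples. In each of them the control samples were close to each other and the depleted samples well below. This follows from their choice by nearness to Gpx3. The log2 fold changes of these 4 genes ran from -2.45 to -2.03.

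The wider peroxide and superoxide metabolism was followed in 7 lists of partner genes with 91 tested genes in all, 4 of which stand in 2 lists. By limma, 0 of the 91 passed the adjusted threshold, against 0.505% of all genes tested, 5 had an unadjusted p under 0.05, and voom on the recovered reads also called 0, against 0.974% of all genes. The groups did not overlap for 18 partner genes that were lower in si-SMaRT and for 13 that were higher, where the shares over all genes were 20.4% and 20.2%. The median log2 fold change over the 91 genes was -0.04.

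Glutathione peroxidases draw on glutathione, and 17 genes of its synthesis, supply and reduction were tested. Of these, 10 had a log2 fold change below 0 and 7 above, with a median of -0.16. Gss, glutathione synthetase, had an RPKM of 11.9 and 12.2 in si-SCR and of 9.21 and 7.93 in si-SMaRT (log2 fold change -0.49, adjusted p = 0.612), whereas Gsr, the reductase that regenerates glutathione, had 11.0 and 10.7 against 11.0 and 10.3. The 3 genes with the highest level in si-SCR were Glrx3, Slc3a2 and Glrx5, with log2 fold changes of 0.10, 0.06 and 0.05. The median of the list became -0.03 after the trend with GC content was removed.

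Peroxiredoxins and thioredoxins form the parallel route for hydrogen peroxide. Of the 16 genes tested, 10 had values below 0 and 6 above, with a median of -0.08. Txn1, Prdx1 and Prdx3 had the highest levels, and their log2 fold changes were -0.26, -0.04 and -0.43. Prdx3, the mitochondrial peroxiredoxin that shares its compartment with Sod2, had an RPKM of 126 and 97.4 in si-SCR and of 74.8 and 91.0 in si-SMaRT (adjusted p = 0.693). Prdx5 had 50.5 and 44.0 against 35.2 and 23.1 (log2 fold change -0.72, adjusted p = 0.385). Txnrd1, the cytosolic thioredoxin reductase and itself a selenoprotein, had 45.2 and 51.0 against 69.5 and 64.0 (log2 fold change 0.47, adjusted p = 0.618).

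Other selenoproteins and the machinery that inserts selenocysteine gave 22 tested genes, with 11 below 0 and 11 above, and a median of 0.00024. Sepp1, which encodes selenoprotein P, the carrier of selenium in plasma, had an RPKM of 6.28 and 5.75 in si-SCR and of 10.7 and 15.3 in si-SMaRT (log2 fold change 1.08, adjusted p = 0.119). Msrb1, a methionine sulfoxide reductase, had 19.3 and 16.3 against 11.3 and 12.3 (log2 fold change -0.58, adjusted p = 0.517). Secisbp2 and Eefsec, which recode TGA at selenocysteine, had log2 fold changes of -0.20 and 0.03. The 3 genes with the highest level, Sep15, Vimp and Selk, had log2 fold changes of 0.21, -0.16 and -0.21.

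Nrf2 is the factor that induces many of these enzymes under oxidative stress. Its 16 tested partners and targets lay between -0.29 and 0.47, with a median of -0.05. Nfe2l2, which encodes Nrf2, had an RPKM of 27.3 and 28.8 in si-SCR and of 25.9 and 36.6 in si-SMaRT, and its groups overlapped. Hmox1 and Nqo1, commonly used readouts of Nrf2, had log2 fold changes of -0.10 and -0.01. The highest levels were those of Fth1, Ftl1 (in a row joined with another gene) and Nfe2l1, with log2 fold changes of -0.19, -0.12 and -0.27.

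Of 19 genes listed under sources of superoxide and hydrogen peroxide, only 5 were tested, and the groups overlapped for each of these. Their log2 fold changes lay between -0.26 (Maoa, monoamine oxidase A) and 0.31 (Ero1l, an oxidase of the endoplasmic reticulum). Poldip2, which had the highest level in si-SCR, had a log2 fold change of -0.04. Copper reaches Sod1 through transporters and the chaperone Ccs. Of 5 genes tested, 4 had values below 0 and the median was -0.28. Ccs had an RPKM of 18.8 and 18.1 in si-SCR and of 15.6 and 12.2 in si-SMaRT (log2 fold change -0.42, adjusted p = 0.697). The chaperone Atox1 had 153 and 117 against 108 and 84.5 (log2 fold change -0.49, adjusted p = 0.638), and the importer Slc31a1 had 13.6 and 13.3 against 10.0 and 12.1 (log2 fold change -0.28, adjusted p = 0.832). The groups did not overlap for these 3, where 20.4% of all genes tested were separated in that direction, and none passed the test. Atp7a, a copper pump, was separated in the higher direction, with 7.69 and 7.72 against 8.07 and 9.59 (log2 fold change 0.19, adjusted p = 0.893).

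The glutathione transferases, some of which also reduce organic peroxides, gave 14 tested genes with a median of -0.22. The groups did not overlap for 7 that were lower and 4 that were higher in si-SMaRT, where 20.4% and 20.2% of all genes tested did so. Gstm1 had an RPKM of 8.73 and 11.7 in si-SCR and of 22.7 and 13.4 in si-SMaRT (log2 fold change 0.78, adjusted p = 0.374). Gstt1 had 1.03 and 1.48 against 0.927 and 0.503 (log2 fold change -0.77, adjusted p = 0.548). Gstp1, Gsto1 and Gstz1, with the highest levels, had log2 fold changes of -0.13, -0.22 and -0.48. Gstp1 and Gstp2, like the Gstm genes, are close copies, so reads may have been split between them. Prdx5, Sepp1, Msrb1, Gstm1 and Gstt1 were named because their unadjusted p was under 0.05, and these and other partner genes outside the highest 3 of a list were chosen after their values were seen.

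After removal of the trend with GC content, 3 of 87 partner genes passed the threshold, all higher in si-SMaRT, where 1.97% of all genes tested passed in that direction. They were Sepp1 (log2 fold change 0.98, adjusted p = 0.00899), Gstm1 (0.89, adjusted p = 0.0377) and Sepn1, the selenoprotein N of the endoplasmic reticulum (0.65, adjusted p = 0.0395), all from limma.

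**Figure D4:**
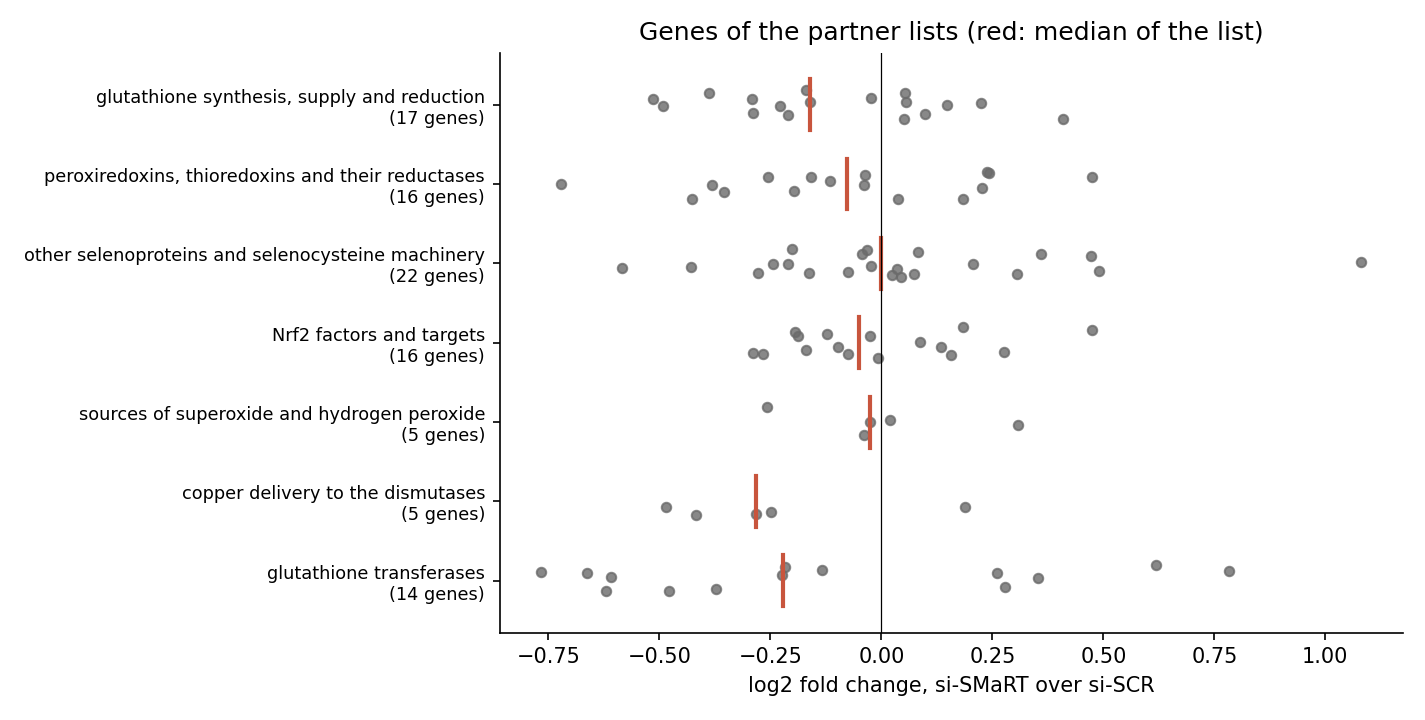
Log2 fold change, si-SMaRT over si-SCR, of each tested gene of the 7 partner lists (grey points, spread vertically for legibility), with the median of each list in red. The medians lie between -0.28 for copper delivery and about 0 for the other selenoproteins.

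The pull-down asked which RNAs came down with lnc-SMaRT. Of the 345 deposited peaks of the lnc-SMaRT library and the 336 of the LacZ library, 0 overlapped an exon of any of the 9 genes on the same strand. The count remained 0 in both libraries with introns included and on either strand. For comparison, 62 protein-coding genes held a peak in the lnc-SMaRT library and 36 in the LacZ library, and none was a partner gene. Among the rows with expression values 10092 were protein-coding, so genes with a peak were rare. A count of 0 would be met for most sets of so few genes, and nothing is read from it. With 1 library each there was no test, and a gene without a peak was only not called at this depth. Mlx, the mRNA that the study follows as a target of lnc-SMaRT, had an RPKM of 25.9 and 21.8 in si-SCR and of 20.2 and 20.1 in si-SMaRT (log2 fold change -0.24, adjusted p = 0.857).

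Promoter windows of 300 bases around the annotated starts (RefSeq, GRCm38.p6) were searched on both strands for 3 short motifs. The core of the antioxidant response element that Nrf2 binds, TGACNNNGC, was in the window of Sod1 and in no window of Gpx1, Gpx3, Gpx4, Gpx8, Sod2 or Cat, and it was in 12.4% of all 32851 windows. CACGTG, the E-box to which dimers of MLX bind, was in no window of these genes and in 7.15% of all. CAGCTG, an E-box bound by MyoD, was in 1 of 4 windows of Gpx4, in no window of the other 6 genes and in 16.3% of all. None of the 3 motifs contains another, and a match describes the letters only.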

How the data were processed

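Total RNA of 4 C2C12 samples and 3 pull-down libraries was sequenced. The authors trimmed reads (Trimmomatic), removed rRNA and tRNA reads (Bowtie 2), ran TopHat2 against GRCm38, removed mitochondrial reads, counted them per gene with htseq-count, filtered on low CPM and deposited RPKM values calculated with edgeR after TMM scaling. Versions are not given in the sources used here. The p-value of each peak was deposited by the authors (Piranha), and the peak lists do not state their background. The input was not used here.

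Reads were worked out from the steps of the RPKM values for all 11642 rows, of which 576 join genes. The factor was fixed by the gene model for 6074 rows and was otherwise the smallest that gave a whole length. The rows summed to between 10940856 and 14259773 reads per sample. Counting intervals and the limit of 3 reads ignore amplification.

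Groups were compared on log2(RPKM + 0.1) with limma 3.58.1 under R 4.3.3, using lmFit and eBayes with a trended prior. Genes entered at a mean RPKM of 0.5 or more, p-values were adjusted by Benjamini-Hochberg over all of them, and the threshold was 0.05. GC content was that of the longest transcript of each gene in GENCODE M21, and its trend was removed per sample by loess (span 0.3). For Sod1 and Sod2 this transcript has 3970 and 5861 bases, where the RPKM values fit 646 and 3824. Alternatives were other pseudocounts, filters and scalings, voom on the recovered reads, replicate blocks and each sample left out. Crossed blocks and the GC trend with a block were added after the values were seen.

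The genes and partner lists were chosen with earlier results of these data known. Named were the 9 enzymes, lnc-SMaRT, Mlx, the 3 genes with the highest mean RPKM in si-SCR of each partner list with any past the threshold, and the 5 genes nearest to Gpx3. Among the named genes, 1 withheld item is not reported here. Tables and figures were made with scipy 1.17.1, pandas 2.3.3, numpy 2.4.6 and matplotlib 3.10.9 under Python 3.11.15.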

Additional observations from a re-analysis of the deposited data

How the results depend on the processing

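The log2 fold change of lnc-SMaRT stayed past the threshold in all 15 alternatives, between -2.55 and -2.11 (-2.55 to -2.22 with 1 sample left out). The number of genes past the threshold was 56 and stayed within 1.5 times that with other pseudocounts, filters or prior variance. It was 37 with quantile normalization and 108 with voom on the recovered reads, and 468 with the trend with GC content removed. With 1 sample left out it ranged from 24 to 2908, and the highest values came without si-SMaRT replicate 1 (2908) and without si-SMaRT replicate 2 (941), each of which leaves a lone depleted sample whose spread is taken from the control samples, as a lone control sample takes that of the depleted samples. The causes of the other shifts were not tested. The partner genes past the threshold numbered 0 and became 3 with the GC trend removed and from 0 to 22 with 1 sample left out (22 without si-SMaRT replicate 1, 7 without si-SMaRT replicate 2).

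The study does not state which si-SCR and si-SMaRT samples came from the same population. Whether the replicate numbers pair the samples could not be decided. The deviations of equally numbered samples correlated at -0.362 across genes. The replicate differences also ran in opposite directions with GC content, with a Spearman's rho of 0.392 for si-SCR and -0.863 for si-SMaRT. The correlation can therefore be negative with or without pairing. With the replicate block 96 genes passed, with a crossed replicate block 487, and with the GC trend removed together with the replicate block 988. Partner genes past the threshold numbered 0, 1 and 6 in these fits. The crossed block, added after the values were seen, also put Gpx4 past the threshold beside Gpx3, and the replicate block did not. This is no test of either gene, since the enzymes were chosen with this comparison in view.

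For the enzymes themselves, the sign was kept in all alternatives but for Gpx8 without si-SCR replicate 2 or si-SMaRT replicate 2. Ranges over all alternatives were -0.69 to -0.11 for Gpx1, -4.55 to -1.11 for Gpx3, -1.09 to -0.53 for Gpx4, -0.22 to 0.46 for Gpx8, -0.41 to -0.13 for Sod1, -0.41 to -0.09 for Sod2 and 0.04 to 0.12 for Cat. With a minimum mean RPKM of 5, Gpx3 has no value. The peak counts on the enzyme genes were 0 in every setting. Depth limits Gpx3 most, at 1 read in each depleted sample.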
